A study of Mus musculus with 4 samples.

Results

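Of the 10 elastic fibre genes asked for (Eln, Fbn1, Fbln1, Fbln2, Fbln5, Efemp1, Efemp2, Mfap4, Mfap5 and Ltbp1), 8 had a row whose platform annotation gave that symbol alone, and these 8 were described across 4 arrays. They are 8 of 22180 genes with a symbol of their own. Fbn1 and Efemp2 were not matched and are not analysed here. Each of the 8 had a single row, and all 8 passed the filter on dim genes, which kept 12550 genes with a mean log2 value of at least 3.02.

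RNA came from primary vascular smooth muscle cells (VSMCs), the cells of the aortic media that lay down its elastic layers, taken from mouse thoracic aorta after removal of the adventitia and grown for 5 days. The 2 control arrays carried SM22α-Cre(−)Mmp14(fl/fl)Apoe(−/−) cells and the 2 knockout arrays SM22α-Cre(+)Mmp14(fl/fl)Apoe(−/−) cells. All donors therefore lacked Apoe, an apolipoprotein whose loss raises plasma cholesterol, carried floxed Mmp14, the gene of the membrane collagenase MT1-MMP, and had 3 months of Western diet. The knockouts differed by Cre from the SM22α promoter, which is active in smooth muscle, and the mice formed 2 independent pairs per the design text, with their ages not given in the sources used here.

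Elastic fibres give the arterial wall its recoil. Tropoelastin, the soluble product of Eln, is deposited on a scaffold of fibrillin microfibrils and cross-linked there by lysyl oxidases, and short fibulins, above all the products of Fbln5 and Efemp2, guide that assembly. Microfibrils also hold latent TGF-beta binding proteins such as Ltbp1, which store the growth factor TGF-beta in the matrix.

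The array medians lay between 3.01 and 3.05 on the log2 scale, and Pearson's r over rows, which are not independent replicates, was 0.974 to 0.982 between arrays. Mmp14 read 8.71 and 9.05 on the control arrays against 8.27 and 8.19 on the knockout arrays, or -0.65 between the means (SE 0.17; limma, adjusted p = 0.319). Its row may hold probes outside the floxed exons, which was not tested, and it is only a partial check of the labels. Tagln, the gene whose promoter was used for Cre, differed by -0.01, and Apoe, disrupted by genotype in all mice, by -0.36, and neither passed the test (limma, adjusted p = 0.997 and 0.502). With 2 arrays against 2, an exact two-sided permutation test cannot give a p below 0.333, and no such p is given.

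Eln and Ltbp1 had the largest differences among the elastic fibre genes, to 0.287 and 0.320 times the control level. Efemp1 and Fbln5 followed, at 0.402 and 0.456 times, while Fbln1, Fbln2, Mfap4 and Mfap5 had overlapping groups. The knockout arrays were both below the 2 control arrays for Eln, Ltbp1, Efemp1 and Fbln5. None of these differences passed the test over all genes: limma called 0 of the 8 and 0 of 12550 genes tested (0%) at an adjusted p under 0.05. At an unadjusted p under 0.05 there were 2 of the 8, Eln and Ltbp1, against 1465 of 12550 genes (11.7%). In bulk RNA, fewer cells of a type and less RNA per cell cannot be told apart, and levels of macrophage and endothelial markers differed between the same groups.

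**Figure D1:**
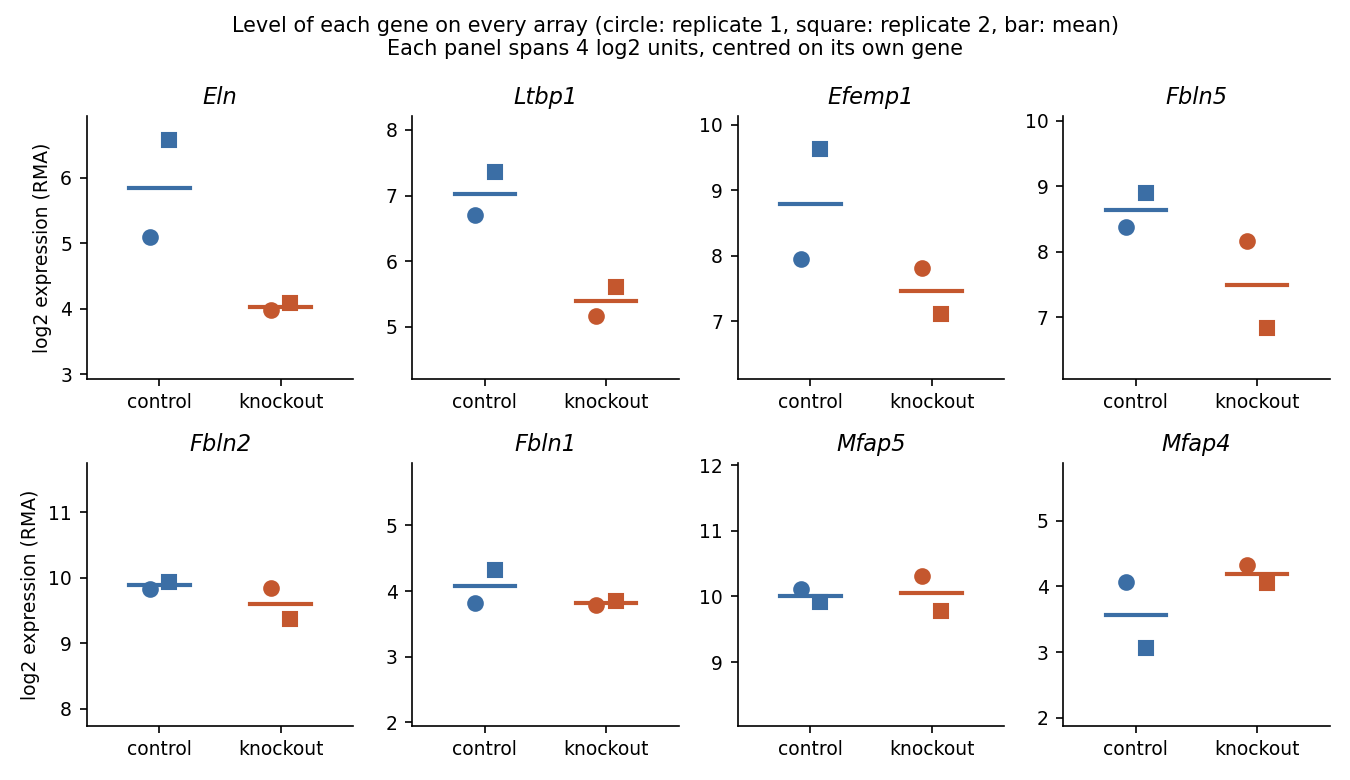
Log2 expression (y axis) of the 8 elastic fibre genes in control and knockout cells (x axis), with a circle for replicate 1, a square for replicate 2 and a bar for the group mean of 2 arrays. The knockout points lie below both control points in the panels of Eln, Ltbp1, Efemp1 and Fbln5, and the groups overlap in the other panels.

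Eln, which encodes tropoelastin, read 5.10 and 6.57 on the control arrays against 3.98 and 4.08 on the knockout arrays. The knockout arrays lay close together and below both controls, but the controls stood 1.47 apart, a larger gap than that of all but 0.749% of tested genes. The means were 5.84 ± 1.04 and 4.03 ± 0.07 (SD, n = 2 each), a log2 difference of -1.80 (SE 0.50, 95% interval -3.11 to -0.50; limma, adjusted p = 0.335). Only 0.247% of tested genes had a lower difference. The Eln difference came to -1.07 when control replicate 2 was left out and to -2.54 when control replicate 1 was, so its size moved with which control was kept.

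Ltbp1, the microfibril protein that tethers latent TGF-beta, read 6.71 and 7.36 on the control arrays against 5.17 and 5.60 on the knockout arrays. The groups were 1.10 log2 units apart at their nearest arrays, more than either group's own gap of 0.65 and 0.44. The means were 7.03 ± 0.46 and 5.39 ± 0.31 (SD, n = 2 each), a log2 difference of -1.64 (SE 0.29, 95% interval -2.39 to -0.90; limma, adjusted p = 0.210). This was the smallest adjusted p of the 8 genes, and it did not pass. Leaving out single arrays gave differences of -1.97 to -1.32.

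Efemp1, which encodes fibulin-3, read 7.94 and 9.62 on the control arrays against 7.82 and 7.12 on the knockout arrays. The upper knockout array lay 0.13 below the lower control, and the gap between the controls, 1.68, exceeded the difference between the group means. The means were 8.78 ± 1.19 and 7.47 ± 0.50 (SD, n = 2 each), a log2 difference of -1.32 (SE 0.61, 95% interval -2.90 to 0.27; limma, adjusted p = 0.488). It came to -0.48 when control replicate 2 was left out and to -2.15 when control replicate 1 was.

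Fbln5, a fibulin with an integrin-binding motif that is needed for normal elastic fibres in mice, read 8.38 and 8.89 on the control arrays against 8.17 and 6.84 on the knockout arrays. Here the knockouts were the spread group: knockout replicate 1 was 0.21 below the lower control and knockout replicate 2 a further 1.33 lower. The means were 8.63 ± 0.36 and 7.50 ± 0.94 (SD, n = 2 each), a log2 difference of -1.13 (SE 0.48, 95% interval -2.39 to 0.13; limma, adjusted p = 0.469). It came to -0.47 when knockout replicate 2 was left out and to -1.80 when knockout replicate 1 was.

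The promoters of the 3 of these lower genes with an entry in the RefSeq table are shown with that of Fbln2, a relative whose groups overlapped, so that the sequences can be set side by side. Each run is the 250 bases before the gene's farthest upstream start, in RefSeq assembly GRCm38.p6, 5′ to 3′ on the gene's strand: chr17:75005279-75005528 (plus strand) for Ltbp1, chr11:28852955-28853204 (plus) for Efemp1, chr12:101819120-101819369 (minus) for Fbln5 and chr6:91212514-91212763 (plus) for Fbln2. Ltbp1, Fbln5 and Fbln1 have 2 starts each in that table, and only the farthest upstream was searched for them. Which start the array rows reflect was not tested. Capitals mark matches on either strand to 6 motifs.
Ltbp1: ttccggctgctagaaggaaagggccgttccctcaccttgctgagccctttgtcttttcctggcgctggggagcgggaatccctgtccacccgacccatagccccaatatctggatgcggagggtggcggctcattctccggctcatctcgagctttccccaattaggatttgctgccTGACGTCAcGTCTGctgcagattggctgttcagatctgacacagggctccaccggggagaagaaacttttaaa
Efemp1: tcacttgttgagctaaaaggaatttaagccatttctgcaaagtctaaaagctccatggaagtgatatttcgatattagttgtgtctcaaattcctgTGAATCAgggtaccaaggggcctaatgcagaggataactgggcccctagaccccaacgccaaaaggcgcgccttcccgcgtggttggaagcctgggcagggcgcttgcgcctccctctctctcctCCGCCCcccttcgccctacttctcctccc
Fbln5: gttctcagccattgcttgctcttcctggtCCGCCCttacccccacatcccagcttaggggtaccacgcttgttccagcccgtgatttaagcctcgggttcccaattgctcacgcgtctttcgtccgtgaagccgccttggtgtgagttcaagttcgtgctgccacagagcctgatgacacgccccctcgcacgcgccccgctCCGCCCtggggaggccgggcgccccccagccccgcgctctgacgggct
Fbln2: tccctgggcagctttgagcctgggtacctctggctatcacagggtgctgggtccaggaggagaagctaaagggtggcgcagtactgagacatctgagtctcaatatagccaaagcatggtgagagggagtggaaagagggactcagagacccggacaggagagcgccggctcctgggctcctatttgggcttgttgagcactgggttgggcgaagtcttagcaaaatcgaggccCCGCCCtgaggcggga
The motifs searched were TGACGTCA (the cyclic AMP response element), CAGAC (a Smad box), TGANTCA (AP-1), GGGCGG (the GC box of Sp1), GGAATG (TEAD) and the CArG box of serum response factor by name. TGACGTCA was added to the search after the sequences were seen, so its match in Ltbp1 does not come from a preset search. Ltbp1 held it 73 to 66 bases before its farthest upstream start, and 1.55% of 32851 promoter windows of this length hold the motif. Next to it was CAGAC on the opposite strand, found in 42.2%. Efemp1 held TGANTCA (6.75% of windows) and a GC box (32.7%), Fbln5 held 2 GC boxes and Fbln2 held 1. The TEAD motif (12.6% of windows) and the CArG box (1.47%) had no match in these 4 windows, and no motif was shared by the 3 lower genes. The window of Fbln1, a further fibulin gene whose groups overlapped, is not printed. It held CAGAC on the opposite strand, 174 to 170 and 9 to 5 bases before its farthest upstream start. No matches overlapped one another, and a match describes the letters only.

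The other microfibril and fibulin genes had smaller differences. Fbln2, a long fibulin of vessel walls that binds several matrix proteins, read 9.83 and 9.93 on the control arrays against 9.84 and 9.37 on the knockout arrays. One knockout array stood between the controls. The log2 difference was -0.28 (SE 0.20, 95% interval -0.81 to 0.26; limma, adjusted p = 0.644), and it was -0.04 without knockout replicate 2.

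Fbln1, the other long fibulin, read 3.82 and 4.32 on the control arrays against 3.79 and 3.85 on the knockout arrays. The knockouts and control replicate 1 lay within 0.06 of one another, with control replicate 2 above them. The log2 difference was -0.25 (SE 0.21, 95% interval -0.79 to 0.30; limma, adjusted p = 0.694), and -0.0011 without control replicate 2.

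Mfap5, a small glycoprotein of microfibrils (MAGP-2), read 10.11 and 9.91 on the control arrays against 10.32 and 9.78 on the knockout arrays. The knockouts lay on either side of both controls. The log2 difference was 0.04 (SE 0.23), and its 95% interval of -0.56 to 0.63 left room for a difference of about that size in either direction (limma, adjusted p = 0.968).

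Mfap4, a fibrinogen-related protein of elastic fibres, read 4.07 and 3.06 on the control arrays against 4.32 and 4.05 on the knockout arrays. It was the only one of the 8 genes with a difference above 0.1 in the higher direction, and its groups overlapped by 0.02. The means were 3.57 ± 0.72 and 4.19 ± 0.19 (SD, n = 2 each), a log2 difference of 0.62 (SE 0.36, 95% interval -0.33 to 1.57; limma, adjusted p = 0.569). Control replicate 2 was the lowest array, at 3.06 close to the filter level of 3.02, and without it the difference was 0.11.

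**Figure D2:**
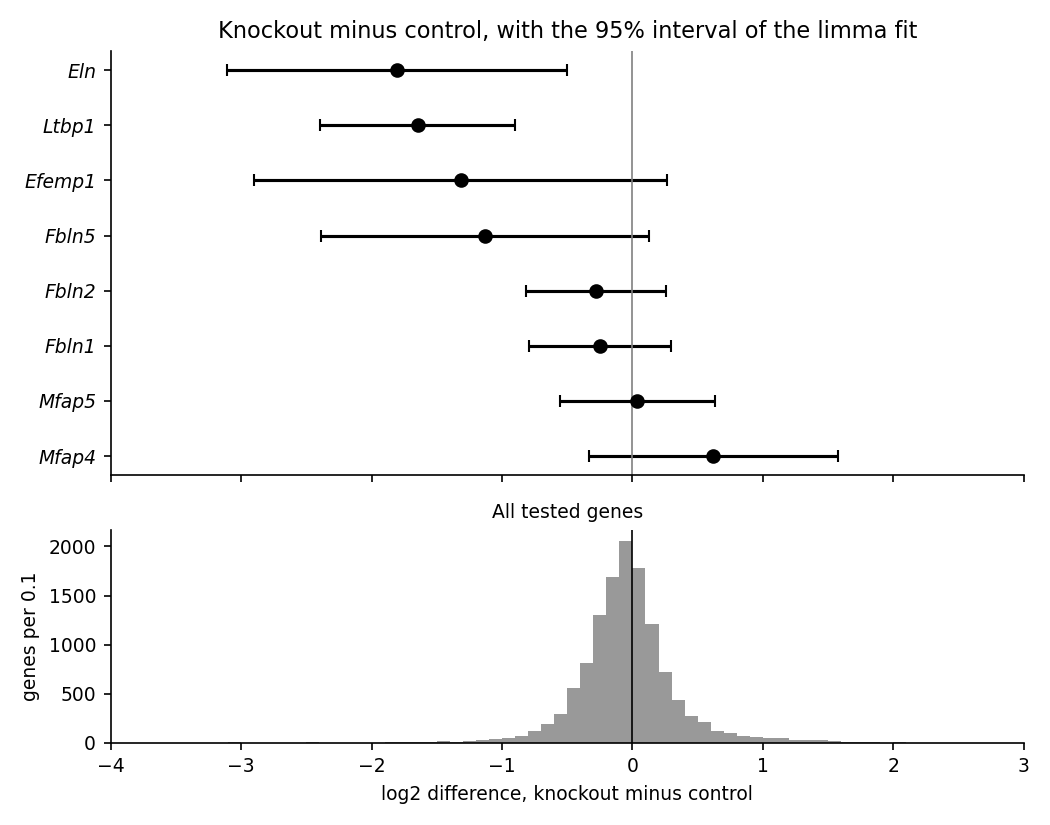
Upper panel, log2 difference of knockout minus control (x axis) for each of the 8 genes, with the 95% interval of the limma fit over 2 arrays a group; lower panel, the number of tested genes per 0.1 log2 units on the same axis. The intervals of Eln and Ltbp1 lie below 0 before any adjustment over genes, and the other 6 intervals include 0.

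Over the 8 genes, 6 had a lower and 2 a higher knockout mean, where 58.3% of tested genes had a lower and 41.7% a higher one. The median log2 difference was -0.70, beside -0.05 over all tested genes, and it came to -0.35 when control replicate 2 was left out and to -0.37 when knockout replicate 2 was. The groups did not overlap for 4 of the 8, all lower, where 44.3% of all tested genes had no overlap and 27.5% had none with the knockouts lower and 16.7% none with them higher. A count of 4 in 8 is near the first of these shares. The members were chosen with earlier results of these data known, so shares set beside them describe the 8 genes and test nothing. The size of the differences stood further from the background, with 4 of the 8 lower by at least 1 log2 unit against 1.4% of tested genes. That count was 2 without control replicate 2 (2.06% of tested genes) and 2 without knockout replicate 2 (1.91%). Only Eln and Ltbp1 had a difference larger than the gap within both groups, as had 31.1% of tested genes.

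The gap between the control arrays ran from 0.11 in Fbln2 to 1.68 in Efemp1, and that between the knockout arrays from 0.06 in Fbln1 to 1.33 in Fbln5. Tested genes had a median gap of 0.19 between the control arrays and of 0.19 between the knockout arrays. Control replicate 2 was above control replicate 1 in 6 of the 8 genes, with Mfap4 and Mfap5 the other way round. Knockout replicate 2 was below knockout replicate 1 in 5 of the 8 and above it in Eln, Ltbp1 and Fbln1. From the lowest to the highest signed difference the order was Eln, Ltbp1, Efemp1, Fbln5, Fbln2, Fbln1, Mfap5 and Mfap4. The 95% intervals of neighbours in that order overlapped throughout, while the interval of Ltbp1 lay wholly below those of Fbln2, Fbln1, Mfap5 and Mfap4, and the differences between genes were not tested.

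The genes whose log2 values, centred on their own mean over the 4 arrays, ran nearest to those of Eln were Chrna1, a muscle acetylcholine receptor subunit (root mean square distance 0.07), Clca3a1 (0.21) and Sox9, a transcription factor of cartilage (0.23). They differed by -1.71, -1.41 and -1.59, each with control replicate 2 above control replicate 1. The lower knockout means and the order of the controls follow from choosing genes by nearness to Eln, and are not separate findings. Chrna1 read 2.70 and 2.66 on the knockout arrays and Clca3a1 2.32 and 2.62, all below the filter level of 3.02. Sox9 read 3.90 and 4.57 on the knockout arrays. Nearness over 4 arrays describes these arrays alone.

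Other genes of the elastic fibre pathway were read from 5 lists, of which 51 of 67 genes were tested. None passed adjustment over all genes (limma), 7 were lower and 3 higher at an unadjusted p under 0.05, where 6.78% and 4.89% of all tested genes were, and the median difference was -0.13. Among 13 tested microfibril and elastic fibre proteins, 6 had higher and 7 lower knockout means, and the median was -0.06. It came to -0.18 and -0.15 when control replicate 2 or control replicate 1 was left out, and to 0.01 and 0.04 with no filter and with the stricter 75th percentile filter. The largest difference there was that of Mmrn2, an EMILIN family protein known from endothelium, at -1.93 (SE 0.36; limma, adjusted p = 0.230). Adamtsl5, which binds fibrillin microfibrils, differed by -0.54, Adamts10 by -0.36 and Ltbp4, the binding protein that works with fibulin-5 in elastic fibre assembly, by -0.27. Fbn2, the fibrillin of developing tissue, was below the filter level, with means of 2.40 and 2.41.

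The cross-linking genes lay on both sides of 0. Loxl4 read 4.82 and 5.54 on the control arrays against 4.23 and 4.15 on the knockout arrays, or -0.99 between the means (SE 0.27; limma, adjusted p = 0.330). Lox, the main lysyl oxidase of the vessel wall, read 10.63 and 10.44 on the control arrays against 10.42 and 10.14 on the knockout arrays, or -0.25 between the means with the groups 0.02 apart. Loxl1, which is needed to renew elastic fibres, differed by -0.41 and its groups overlapped. Atp7a, the copper pump that loads lysyl oxidases, differed by 0.43, and Bmp1, a protease that activates them, by 0.36, both without overlap. Of the 7 tested genes 5 were lower and 2 higher, with a median of -0.25 that came to -0.69 when knockout replicate 1 was left out and to -0.05 when control replicate 2 was.

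The list of elastin-degrading proteases and elastin receptor genes, which also holds the metalloproteinase inhibitor Timp3, had 6 of 8 tested genes higher and a median of 0.28. Timp3 differed by -0.23 with overlapping groups. Ctss, an elastolytic cathepsin of macrophages, differed by 0.67 (SE 0.17; limma, adjusted p = 0.305), Ctsa, a component of the elastin receptor complex, by 0.35, Ctsl by 0.30 and the sialidase Neu1 by 0.25, each with both knockout arrays above both controls. Mmp12, macrophage elastase, read 8.79 and 9.61 on the control arrays against 9.13 and 10.43 on the knockout arrays, and overlapped.

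Of 14 tested integrins and matrix partners of fibulins or fibrillin, 11 were lower and 3 higher, with a median of -0.15 that came to -0.25 when control replicate 1 was left out and to -0.24 when knockout replicate 1 was. Hspg2, which encodes perlecan, differed by -0.74 (SE 0.15; limma, adjusted p = 0.242), Nid1, which encodes nidogen-1, by -0.61, Fn1, which encodes fibronectin, by -0.56 and Itgb8, an integrin subunit that activates latent TGF-beta, by 0.81. In the TGF-beta list, where 4 of 9 tested genes were higher and 5 lower, the receptor genes Tgfbr1 and Tgfbr2 differed by 0.91 and 0.43, the ligand gene Tgfb2 by -0.53 and the signal transducer Smad2 by -0.21. Tgfb1, the ligand most often linked to Ltbp1, differed by 0.20 with overlapping groups.

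**Figure D3:**
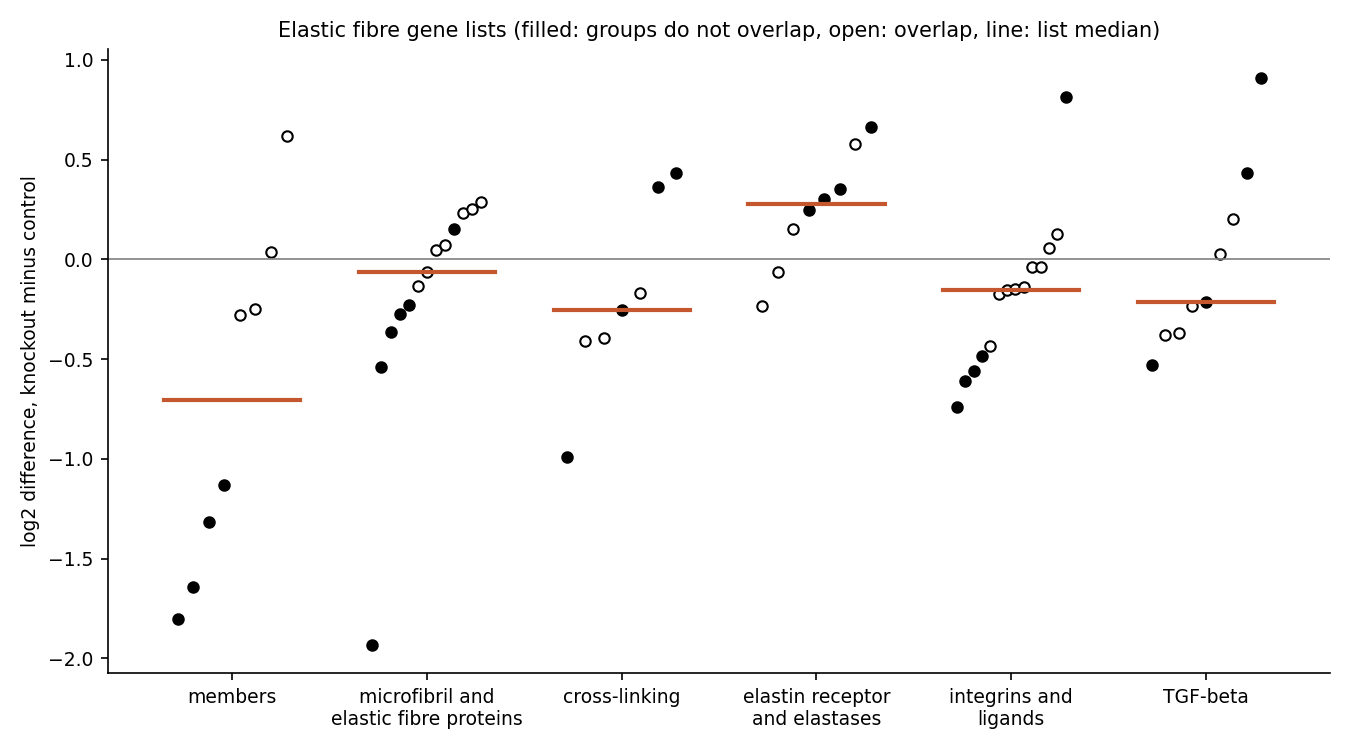
Log2 difference of knockout minus control (y axis) for each tested gene of the elastic fibre set and of 5 lists of related genes (x axis), filled where the 2 groups do not overlap, with a line at each list's median. The elastic fibre genes have the lowest median, -0.70, and the elastin receptor and elastase list the highest, 0.28.

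Mean levels of macrophage and endothelial markers differed between the same groups, though limma called 0 genes in any marker list. The smallest adjusted p was 0.137 among macrophage and 0.104 among endothelial markers (limma). All 12 macrophage markers had higher knockout means, and their mean log2 level was 6.86 and 6.90 on the control arrays against 7.99 and 8.29 on the knockout arrays. Of 11 tested endothelial markers 8 were lower and 3 higher, with a mean level of 5.49 and 5.08 against 4.10 and 4.20. Smooth muscle markers, all 10 above the filter level, had 5 higher and 5 lower, with a mean level of 6.57 and 6.30 against 6.81 and 6.34. Fibroblast markers had 4 of 7 tested genes higher and a median difference of 0.38, opposite in sign to their mean difference, with a mean level of 6.05 and 6.40 against 5.85 and 6.0. That median was -0.17 without control replicate 1, 0.17 without knockout replicate 2 and 0.24 without knockout replicate 1, and 0.05 with no filter and 0.05 with the stricter one. Within that list Dpt, which encodes dermatopontin, differed by -1.51 and Cd34, shared with endothelium, by -2.40, while Serpinf1 and Col14a1 differed by 0.52 and 0.38. Pi16 and Clec3b were below the filter level in both groups. Pdgfra, Lum and Dcn passed it, differed by -0.29, 0.74 and 0.46, and had overlapping groups. The part of cell mixture in the differences of the elastic fibre genes was not tested.

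**Figure D4:**
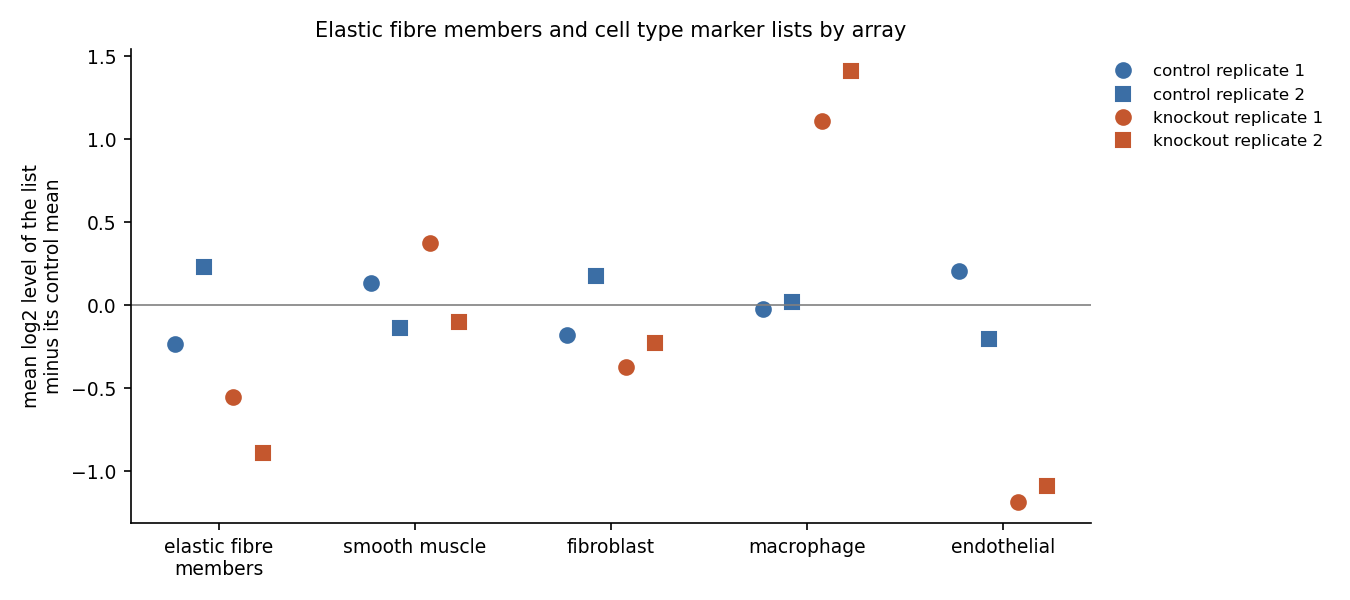
Mean log2 level of the elastic fibre genes and of 4 marker lists on each array, minus the list's control mean (y axis), with circles for replicate 1 and squares for replicate 2. The knockout arrays lie above the controls for macrophage markers and below them for endothelial markers, fibroblast markers (by 0.05 at the nearest arrays) and the elastic fibre genes, and the groups overlap for smooth muscle markers.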

How the data were processed

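Total RNA, amplified from 10 ng, was hybridised to Mouse Gene ST 2.1 strips, per the labels' protocols and the design text. The deposited values are log2 expression summarised by the authors with RMA (per the submitters' processing notes). Their range, 1.17 to 12.4, gave the log base, and the sources used here name no chip definition or build. RMA was the only normalisation behind the main fit, and levels of different genes were not compared.

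Of 41345 rows, 23521 had 1 symbol, 1814 several and 16010 were not listed. For 23328 rows the gene number matched RefSeq (GRCm38.p6), and 0 symbols changed. Per gene the row with the highest mean was kept, and 9630 genes were left out for a mean under 3.02, the median over all rows.

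Knockout minus control was fitted without covariates in limma 3.58.1 under R 4.3.3 (lmFit, eBayes), with Benjamini-Hochberg adjustment over 12550 genes, called under 0.05. The fit was tested on simulated data with 50 changed genes. These gave 11 called at a change of 1 log2 unit and 38 at 2 units, with 3 false calls at each. The simulated spread was not matched here to that of these arrays, so the counts check the fit and do not give its power on them. On the arrays themselves 0 of 12550 genes were called, with a smallest adjusted p of 0.104 (limma). P-values measure the spread between arrays, in which mouse, culture and hybridisation vary together.

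The members and lists were chosen with earlier results of these data known. All members, Mmp14, Tagln and Apoe are named, and up to 4 genes per pathway list with the largest difference and no overlap. Fbn2, Loxl1, Mmp12, Timp3, Tgfb1, Dpt, Cd34, Serpinf1, Col14a1, Pi16, Clec3b, Pdgfra, Lum and Dcn were named after their values were seen. A search for genes like Fbn1 was not run, since it had no matched row. The motif TGACGTCA was added after the sequences were seen. Alternatives were a replicate block, 2 other filters, a second quantile normalisation, median centring, the mean of all rows, eBayes with trend and robust estimation, and leaving out each array. Plots were drawn with matplotlib 3.10.9.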

Additional observations from a re-analysis of the deposited data

How the results depend on the processing

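Limma called 0 of the 8 genes and 0 of all genes tested under each of the 11 alternatives, with 929 to 2125 genes at an unadjusted p under 0.05. The differences of Eln, Ltbp1, Efemp1, Fbln5, Fbln1 and Mfap4 kept their direction wherever they were fitted, as did that of Fbln2. Fbln1 and Mfap4 were not fitted with the 75th percentile filter, under which the median of the 6 remaining genes was -1.22. Mfap5 turned to -0.06 without control replicate 2 and to -0.23 without knockout replicate 1, and was 0.31 without knockout replicate 2. Leaving out single arrays moved the median of the 8 genes between -0.97 and -0.35 and the number without overlap between 4 and 7, where 70.9% to 73.5% of all tested genes had no overlap, against 44.3% with 2 arrays a group. A second quantile normalisation and median centring each left 5 of the 8 genes without overlap, where 43.4% and 46% of all tested genes had none. Adjusted p-values over the alternatives ran from 0.175 to 0.454 for Eln and from 0.0994 to 0.429 for Ltbp1. The lowest, 0.0994, came with the title number as a replicate block, which called 0 genes and left 1527 at an unadjusted p under 0.05. Same-numbered arrays shared little (r = 0.05 over tested genes between their deviations from the group means), and the labels do not say that a number marks a pair. The causes of these shifts were not tested. Signal over background could not be read from the deposited values.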
